A study of Mus musculus with 4 samples.

Results

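Hair cells are the mechanosensory cells of the inner ear, and here they were selected on measured values, as the single cells that carried RNA of at least 4 of 11 hair cell genes. The 11 genes were Pou4f3, Gfi1 and Barhl1, which encode transcription factors of hair cells, Myo7a, the unconventional myosin of the hair bundle, Otof, the calcium sensor of hair cell exocytosis, Cabp2 and Cib3, which encode calcium-binding proteins, and Acbd7, Cd164l2, Ccer2 and Rasd2. A barcode was first kept when it had at least 500 detected genes and at most 20% of its unique molecular identifiers (UMIs) from mitochondrially encoded genes. Of 37597 barcodes, 37313 were kept and 207 passed the gate. WT at day 25 held 29 of them, KO at day 25 held 15, WT at day 35 held 114 and KO at day 35 held 49.

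The data are droplet single-cell RNA sequencing of mouse inner ear organoids, three-dimensional cultures grown from embryonic stem cells. The wild type (WT) line is labelled R1/E and the knockout (KO) line Tmprss3KO-GFPKI, and both are given as derived from the strain 129X1x129S1. Tmprss3 encodes a membrane serine protease whose loss causes deafness in people and mice. Both lines were sampled at day 25 and at day 35 with 1 library per group, so genotype and day cannot be told apart from the library, and the number of clones behind the KO line is not stated in the labels.

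A hair cell carries an apical bundle of actin-filled stereocilia, and tip links between stereocilia pull on a transduction channel built around the Tmc proteins. Calcium that then enters at the basal side drives release from ribbon synapses onto sensory neurons. During development each hair cell also carries a kinocilium, a true cilium with a microtubule axoneme, which vestibular hair cells keep.

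Barcodes near the limit of the gate were few beside all kept barcodes, but not beside the gated cells of KO at day 25. With a limit of 3 gate genes that library would have held 23 gated cells in place of 15. Barcodes with exactly 3 gate genes numbered 7, 8, 8 and 7 in WT day 25, KO day 25, WT day 35 and KO day 35, and barcodes with exactly 4 numbered 1, 1, 8 and 5. Summed over the 4 libraries, the 15 barcodes with 4 gate genes held 466.9 counts per 1000000 UMIs (CPM) of Acbd7, against 66.86 CPM in the 30 barcodes with 3. The median depth of these sets was 4530 and 12237 UMIs, so the barcodes with 3 gate genes were the deeper ones. Of genes outside the gate, Smpx was at 338.1 and 58.76 CPM and Espn at 708.4 and 417.4 CPM in the same 2 sets. The levels of the gate genes themselves follow from the choice of cells and are given as a description. Acbd7 was at 710.8, 1093, 3070 and 2215 CPM, in the same order of libraries, and was detected in 29 of 29, 14 of 15, 113 of 114 and 49 of 49 gated cells. Pou4f3 was at 196.5, 279.2, 352.6 and 273.4 CPM and Cabp2 at 200.2, 550.6, 1429 and 1161 CPM. Barhl1 was the rarest gate gene in WT at day 35 and in KO at day 35, with a UMI in 11 of 114 and 3 of 49 cells. As a background from free RNA, 0.175%, 0.178%, 0.0861% and 0% (0 of 310) of the skeletal muscle cells of the same libraries held a Pou4f3 UMI, at median depths of 10209, 9456, 4570 and 6678.5 UMIs.

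**Figure D1:**
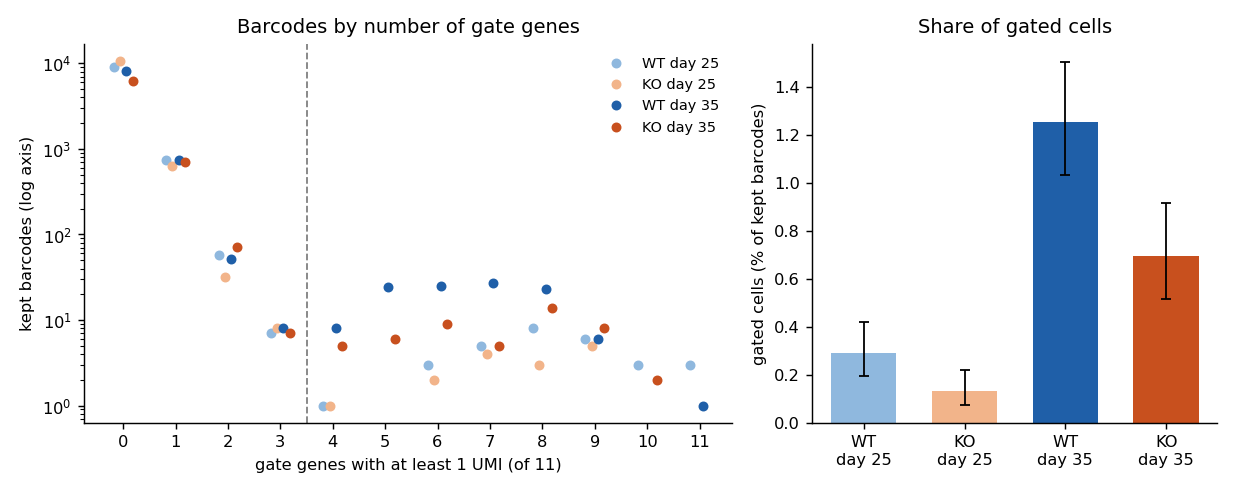
The left panel plots the number of kept barcodes (log axis) against the number of gate genes with a UMI in each library, with the limit as a dashed line; counts drop from 0 to 3 or 4 genes and rise again towards 6 to 8. The right panel shows gated cells as a percentage of kept barcodes per library, with exact 95% intervals for counting error, between 0.133% in KO at day 25 and 1.26% in WT at day 35.

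Depth and cell quality differed between the libraries. The gated cells held 544449, 128953, 416931 and 252406 UMIs in WT day 25, KO day 25, WT day 35 and KO day 35. Their median depth was 16667, 6564, 3041.5 and 4231 UMIs per cell, against 6176, 6381, 3116 and 4447 UMIs in the other kept barcodes. WT at day 25 therefore stood apart, and 15 of its 29 gated cells lay above the 95th percentile of UMIs of their own library, against 2 of 15, 5 of 114 and 1 of 49. In WT at day 25, 16 of 29 gated cells had a UMI in 5 or more of 9 genes of other otic epithelium and 11 had one in 5 or more of 8 skeletal muscle genes. The same counts were 2 and 2 of 15 in KO at day 25, 4 and 3 of 114 in WT at day 35, and 6 and 0 of 49 in KO at day 35. Whether these deep barcodes hold more than 1 cell was not tested. For comparisons that use WT at day 25, shares, counts of genes and the named genes that fell below 2-fold are also given without the deepest 5% of barcodes of each library. The 4 libraries shared between 76 and 142 barcode sequences per pair, and none was gated in both libraries of a pair.

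Gated cells held more mitochondrial RNA than the other cells of their library. The median mitochondrial share was 6.61%, 5.92%, 10.3% and 7.46% of UMIs in gated cells and 2.71%, 2.17%, 5.25% and 3.58% in the others. The difference was positive in 4 of 4 libraries, and the exact two-sided sign-flip test gave p = 0.12, the smallest that 4 libraries allow. Other cell types of the same libraries also lay above the other kept barcodes as a whole. The median share was 3.82%, 3.7%, 7.27% and 5.67% in other otic epithelial cells, defined below. In the skeletal muscle cells it was 3.38%, 2.93%, 7.03% and 5.73%. A limit of 10%, in place of 20%, would have removed 7 of 29, 4 of 15, 61 of 114 and 16 of 49 gated cells.

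Gated cells took a larger share of the day 35 libraries than of the day 25 libraries, and a smaller share of each KO library than of the WT library of its day. It was 0.293% (29 of 9902 kept barcodes, exact 95% interval 0.196 to 0.42) in WT and 0.133% (15 of 11283, 0.0744 to 0.219) in KO at day 25. At day 35 it was 1.26% (114 of 9084, 1.04 to 1.51) in WT and 0.696% (49 of 7044, 0.515 to 0.919) in KO. The KO share divided by the WT share gave 0.454 (0.226 to 0.875) for day 25, and 0.554 (0.388 to 0.781) for day 35. With 1 library per group these intervals cover counting error only and no test between genotypes was possible. The day 25 ratio was 0.815 (0.353 to 1.87) without the deepest 5% of barcodes. The day 35 ratio was 0.756 (0.474 to 1.19) when barcodes above 10% mitochondrial RNA were left out.

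Counted against otic epithelium rather than all cells, the days were nearly level in WT and their order turned in KO, with intervals that include 1. Other otic epithelial cells, taken as kept barcodes outside the gate with a UMI in at least 3 of 9 otic genes such as Otoa, Otol1 and Otog, numbered 242, 198, 890 and 1191. Gated cells made up 10.7%, 7.04%, 11.4% and 3.95% of gated plus other otic cells. The ratio of day 35 over day 25 was then 1.06 (0.701 to 1.66) in WT and 0.561 (0.31 to 1.08) in KO, where it had been 4.29 (2.83 to 6.68) and 5.23 (2.89 to 10.1) over all kept barcodes. The ratio of KO over WT on this denominator was 0.658 (0.328 to 1.27) at day 25, an interval that includes 1, and 0.348 (0.244 to 0.491) at day 35.

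Hair cell genes that the gate did not use were concentrated in the gated cells. A list of 18 such markers summed to 3585, 5328, 5013 and 4449 CPM in WT day 25, KO day 25, WT day 35 and KO day 35, against 260.3, 244.3, 416.4 and 431.6 CPM in the other kept cells. UMIs were summed per library over gated cells and over all other kept cells and compared with edgeR's quasi-likelihood test with the library as a block, with Benjamini-Hochberg adjustment over all genes, and a gene was called at an adjusted p under 0.05 and a difference of at least 2-fold. Of 14287 genes outside the gate, 1640 (11.5%) were higher and 1831 (12.8%) were lower in gated cells, so 47.2% of calls were higher, or 63.5% without TMM scaling. Of the 18 markers 17 were higher, and Anxa4 was not called. The gate selects on genes that hair cells share, so this contrast describes the cells rather than providing evidence independent of the gate.

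Dnajc5b, Ocm, Kncn and Kcna10 were the named genes with the largest differences. Dnajc5b, which encodes a cysteine-string protein, was at 23.88, 108.6, 165.5 and 126.8 CPM in gated cells and at most 0.1249 CPM in the other cells of any library, a log2 difference of 10.24 (standard error from DESeq2 0.525, edgeR adjusted p = 2.993e-16). Kncn, which encodes kinocilin, was at 38.57, 46.53, 158.3 and 146.6 CPM (log2 difference 9.98). Kcna10, a voltage-gated potassium channel gene, was at 97.35, 224.9, 522.9 and 550.7 CPM against at most 0.577 CPM elsewhere (log2 difference 9.88). To be named as higher, a gene had to be higher in gated than in other cells in each of the 4 libraries. That direction therefore follows from the rule, for Ocm as well, and adds no support. Ocm, the gene of oncomodulin, a calcium buffer of outer and striolar hair cells, had a log2 difference of 10.2 but rested on 6, 3, 5 and 1 cells. Grxcr1, Espnl, Loxhd1, Ptprq and Dfnb59 of the bundle, Tomt, Lhfpl5 and Tmc1 of the transduction apparatus, Chrna9 of the efferent receptor and the transcription factor genes Atoh1 and Lhx3 were also among the 25 genes with the largest differences. Others named by size were 4930558C23Rik, Armc4, 1700012P22Rik, Kirrel3os, Ccl21a, Lce6a, Tctex1d1, Pdzph1 and Gm4791. Ccl21a has near-identical copies and the split of reads among them is uncertain.

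Genes of several other organoid tissues were lower. All 8 skeletal muscle markers, all 8 fibroblast markers, 7 of 8 keratinocyte markers and 5 of 6 cycling markers were lower in gated than in other kept cells. Myl1, a myosin light chain gene of muscle, was at 33.06, 46.53, 129.5 and 11.89 CPM in gated cells and at 602, 644.6, 1549 and 644.1 CPM in the others (log2 difference -4.39, edgeR adjusted p = 3.191e-13). Muscle RNA was still present in gated cells, at 525.3, 434.3, 841.9 and 245.6 CPM summed over the 8 markers, and its source was not tested. Of 6 pluripotency markers, 3 were in the fit and 2, Pou5f1 and Dppa5a, were lower, and Dppa5a lost its call with DESeq2. The 6 markers summed to less in gated cells in WT day 25 (3.673 against 28.35 CPM) and KO day 35 (31.69 against 952.4 CPM). Their sum was higher in gated cells in KO day 25 (7.755 against 3.333 CPM, 1 UMI) and WT day 35 (4.797 against 0.981 CPM, 2 UMIs). Of 6 Schwann or satellite glia markers none was called. Of 6 immune markers Cd68 was lower, of 6 oligodendrocyte markers Pdgfra was lower, and of 6 astrocyte markers Gfap, Apoe and Fabp7 were lower.

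A pair of cell types that share transcription factors with hair cells were looked at by their own markers. Merkel cells of the skin also express Atoh1, Isl1 and Sox2, but the keratin genes that mark them were not called higher in gated cells. Krt8 was at 352.7, 317.9, 107.9 and 158.5 CPM in gated cells and 129.3, 70.98, 286.2 and 228.2 CPM in the others (edgeR adjusted p = 0.786), and Krt20 had UMIs in 0, 1, 3 and 1 gated cells. Of the 8 neuronal markers, Nefl and Nefm, which encode neurofilament subunits, were higher, while Tubb3, Stmn2, Elavl3, Elavl4 and Gap43 were lower. Nefl was at 71.63, 77.55, 266.2 and 289.2 CPM in gated cells against at most 12.39 CPM in the others.

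A narrower comparison set the gated cells against the other otic epithelial cells, the tissue that hair cells arise from. Of 9943 genes outside both gates, 803 (8.08%) were higher and 631 (6.35%) were lower in gated cells. Both sets of cells were chosen on genes of their own type, so this contrast also describes the cells. It gives no evidence independent of the choice for hair cell genes or otic genes. Among hair cell transcription factors 8 of 17 genes in the fit were higher and none was lower. Lhx3 was at 102.9, 147.3, 105.5 and 75.28 CPM in gated cells and at most 0.396 CPM in other otic cells (log2 difference 8.75, edgeR adjusted p = 1.139e-08). Atoh1, the proneural gene that starts hair cell differentiation, was at 58.78, 62.04, 28.78 and 35.66 CPM and was detected in 12, 5, 11 and 6 gated cells (log2 difference 7.07, edgeR adjusted p = 2.247e-06). Isl1, Six2, Rfx3, Rbm24, Srrm4 and Mycl were the other called members, and Rbm24 and Srrm4 encode splicing regulators of hair cells. Sox2, which hair cell precursors and supporting cells share, was at 255.3, 124.1, 117.5 and 130.7 CPM and did not reach 2-fold.

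Hair bundle genes were higher for 19 of 26 members in the fit. Espn, which encodes the actin-bundling protein espin, was at 813.7, 1357, 1501 and 1620 CPM in gated cells and 314.9, 358.6, 168 and 286.5 CPM in other otic cells (log2 difference 2.12, edgeR adjusted p = 4.314e-05). Its partner gene Espnl was confined to gated cells by comparison, at 62.45, 31.02, 52.77 and 67.35 CPM against at most 0.119 CPM. Xirp2, an actin-repair gene of stereocilia, was at 42.24, 124.1, 179.9 and 225.8 CPM against at most 1.19 CPM (log2 difference 8.52). Fscn2, Pls1, Myo15, Myo6, Myo3b, Myo1h, Eps8, Eps8l2, Grxcr1, Clrn1 and Ptprq were among the other called members.

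Of the transduction genes 6 of 8 were higher. Lhfpl5, which encodes a subunit of the transduction complex, was at 209.4, 201.6, 393.4 and 229.8 CPM against at most 0.791 CPM in other otic cells (log2 difference 8.87, edgeR adjusted p = 1.011e-09). Tmc1, the gene of the channel's pore-forming subunit, was at 27.55, 54.28, 93.54 and 63.39 CPM against at most 1.32 CPM. Tmc2, its early partner in mouse hair cells, was nearly absent, with 1 gated cell in WT at day 35 and none in the other 3 libraries. Tomt, Tmie, Cib2 and Cdh23 were the other called members, while Pcdh15 (edgeR adjusted p = 0.0807) and Ush1c (0.892) were not called.

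Synapse, channel and calcium buffer genes followed. Ribbon synapse genes were higher for 7 of 9 members, among them Slc17a8, the vesicular glutamate transporter of hair cells, at 40.41, 31.02, 52.77 and 55.47 CPM against at most 1.38 CPM, and Cacna1d, the presynaptic calcium channel gene, at 20.2, 15.51, 23.98 and 23.77 CPM against at most 4.35 CPM. Ion channel, pump and nicotinic receptor genes were higher for 7 of 10. Chrna9 was at 23.88, 31.02, 79.15 and 63.39 CPM, and its partner subunit Chrna10 was at 42.24, 0, 47.97 and 95.08 CPM with no UMI in the 15 cells of KO at day 25. Calcium buffer genes were higher for 6 of 11, led by Calb2, the calretinin gene, at 148.8, 411, 554 and 491.3 CPM against at most 2.41 CPM in other otic cells (log2 difference 8.1, edgeR adjusted p = 4.513e-08). Slc26a5, the prestin gene of outer hair cells, had no UMI in any of the 207 gated cells.

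**Figure D2:**
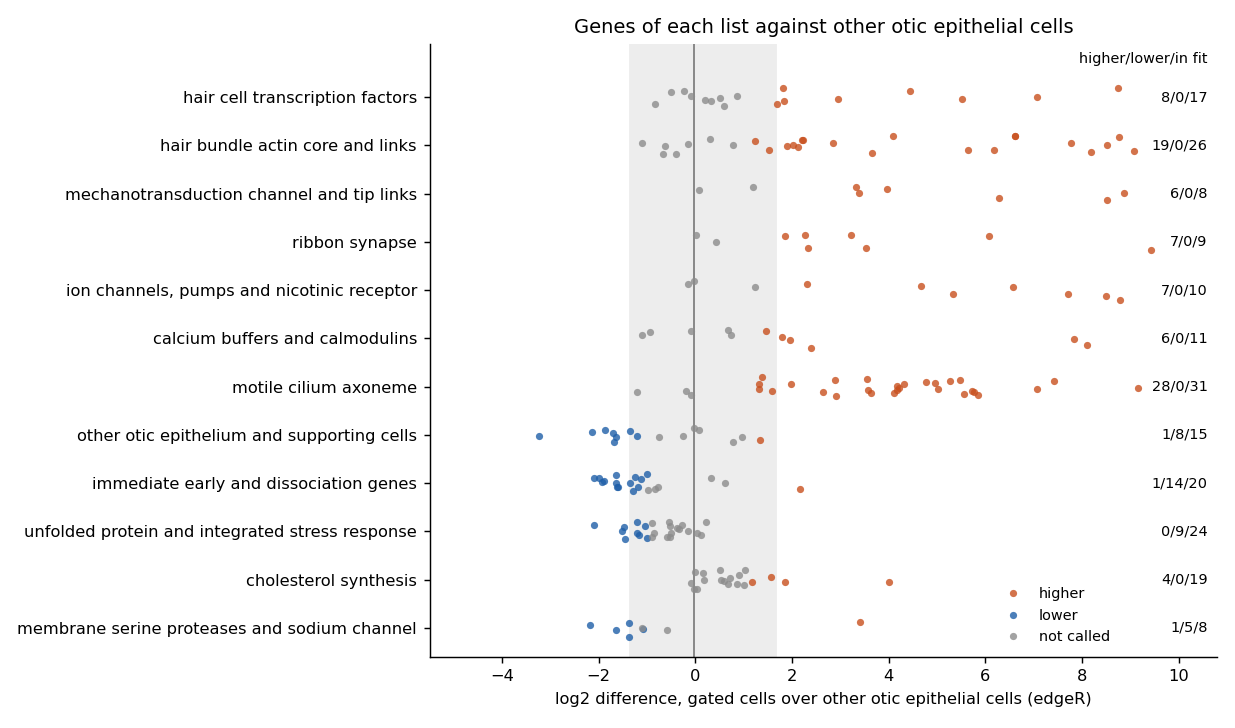
Each point is a gene, placed by its edgeR log2 difference between gated and other otic epithelial cells and coloured by its call; numbers at the right give genes higher, lower and in the fit, the grey band spans the 5th to 95th percentile of all genes tested and the line marks their median. Hair cell lists and the motile cilium list lie to the right, and immediate early, supporting cell and protease genes mostly to the left.

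Other otic epithelial and supporting cell genes showed the opposite pattern for 8 of 15 members. The cells compared with were chosen on otic genes, so this count is a description. Tecta, Hes1, Fabp7, Sox10, Epcam, Cldn6, Clu and Rnase1 were lower in gated cells, and Lfng, a modifier of Notch receptors, was higher. Hes1, a Notch target that holds supporting cells back from the hair cell fate, was at 246.1, 77.55, 177.5 and 265.4 CPM in gated cells and 396, 277.3, 507.4 and 638.3 CPM in other otic cells (log2 difference -1.36, edgeR adjusted p = 0.000195). In the Notch list 2 of 12 were higher, Lfng and Dll1, the ligand gene, and 2 were lower, Hes1 and Notch2. Over all genes 8.08% were higher and 6.35% lower, and a difference of this short list from these shares was not tested. The genes with the largest negative differences were Gm6619, 5430401F13Rik, Cldn10, Wfdc18, Wfdc3, Cited1, Agt, Lect1, Cldn4 and Lmx1a. Cldn4, a tight junction gene, was at 47.75, 15.51, 35.98 and 35.66 CPM against 383.6, 226.3, 618.2 and 269.5 CPM.

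Immediate early genes were mostly lower in gated than in other otic cells. Of 20 immediate early and dissociation genes 14 were lower and 1, the chaperone gene Hsph1, was higher. Against all other kept cells 5 of the 20 were lower and 3 higher. The list summed to 7810, 5413, 5852 and 8851 CPM in gated cells in WT day 25, KO day 25, WT day 35 and KO day 35. The sums were 12160, 13640, 21810 and 21960 CPM in other otic cells and 6170, 7262, 11440 and 11980 CPM in other kept cells. The level was thus high in the other otic cells. Junb was at 563.9, 519.6, 851.5 and 1169 CPM in gated cells and 1570, 1902, 3722 and 4086 CPM in other otic cells (log2 difference -1.94, edgeR adjusted p = 2.106e-07), lower in 4 of 4 libraries. Of 24 unfolded protein and integrated stress response genes 9 were lower and none was higher, among them Ddit3 and Ppp1r15a. Of 19 apoptosis genes 1, Mcl1, was lower, which is near the share over all genes. Against other otic cells 8.08% of all genes were higher and 6.35% lower. Of 20 genes for oxidative stress defence 5 were lower and Gpx2, a glutathione peroxidase gene, was higher, at 716.3, 1768, 2888 and 2528 CPM against 300.4, 554.6, 1428 and 1433 CPM. The 13 mitochondrially encoded genes were all in the fit, and none was called.

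Cholesterol synthesis genes were higher than in other otic cells for 4 of 19, Fdps, Lss, Msmo1 and Hsd17b7, against 8.08% of all genes. Hsd17b7, the 3-ketosteroid reductase of the pathway, was at 143.3, 131.8, 359.8 and 431.8 CPM in gated cells and 15.52, 10.11, 18.79 and 13.93 CPM in other otic cells (log2 difference 4.01, edgeR adjusted p = 3.827e-07). It was also the only 1 of the 19 called against all other cells.

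Tmprss3, the gene targeted in the KO line, was measured with few molecules. Gated cells held 9 UMIs in 7 cells, 1 in 1, 5 in 5 and 4 in 4 in WT day 25, KO day 25, WT day 35 and KO day 35. The reads come from the 3' end of transcripts and the position of the deletion is not given in the labels, so these counts do not check the genotype. Tmprss3 was higher in gated cells than in other otic cells, at 16.53, 7.755, 11.99 and 15.85 CPM against 2.41, 0.879, 1.39 and 0.119 CPM. Of the 8 genes of membrane serine proteases, their inhibitors and the epithelial sodium channel in the fit it was the single member that was higher, while Tmprss2, Prss8, St14, Hpn and Spint1 were lower.

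Genes of the motile cilium axoneme formed a further group in the gated cells. This list of 40 genes was drawn up after axonemal genes had been seen among the leading genes, so its counts describe and do not test. Of 31 members in the fit against other otic cells 28 were higher and none was lower, with a median log2 difference of 4.16 against -0.03 for all genes tested. Foxj1, the master regulator of motile cilia, was at 62.45, 23.26, 23.98 and 63.39 CPM in gated and 7.588, 18.9, 14.84 and 17.5 CPM in other otic cells (log2 difference 1.59, edgeR adjusted p = 0.00999). Mlf1 was at 152.4, 209.4, 647.6 and 471.5 CPM against 13.11, 11.43, 30.86 and 17.26 CPM, and Cfap126 at 117.6, 193.9, 527.7 and 423.9 CPM against 5.864, 8.35, 5.341 and 10.12 CPM. Dnah5, an outer dynein arm heavy chain gene, was at 22.04, 23.26, 43.17 and 27.73 CPM, with no UMI in other otic cells of any library. Tppp3, Tctn1 and Ift57 were the members not called.

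The cilium genes were spread over most gated cells. At least 5 of the 40 genes had a UMI in 89.7%, 73.3%, 79.8% and 81.6% of gated cells, at the median depths given above. The same share was 8.26%, 11.1%, 5.51% and 3.69% in other otic cells, whose median depth was 9550, 8612.5, 4287.5 and 5659 UMIs. It was 2.51%, 1.72%, 0.345% and 0.968% in the skeletal muscle cells of the same libraries, which served as the background from free RNA, with median depths of 10209, 9456, 4570 and 6678.5 UMIs. The summed level of the 40 genes in gated cells was 1392, 1753, 3838 and 3229 CPM.

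**Figure D3:**
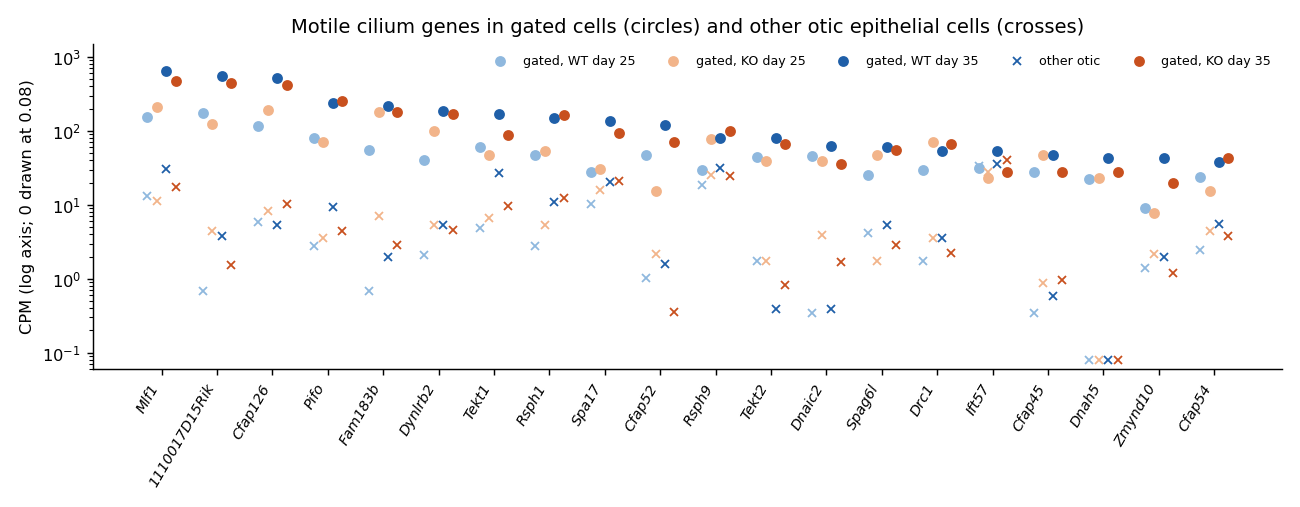
The 20 motile cilium genes with the highest level in gated cells of WT at day 35 are shown as CPM (log axis) in gated cells (circles) and other otic epithelial cells (crosses), coloured by library. Circles lie above crosses of the same library for all genes shown other than Ift57.

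The promoters of these genes are shown because Rfx3, a factor of ciliary genes, was higher in gated cells, at 45.92, 62.04, 57.56 and 39.62 CPM against 13.11, 14.94, 12.86 and 11.67 CPM in other otic cells (log2 difference 1.83, edgeR adjusted p = 0.000182). The windows, taken from RefSeq on GRCm38.p6, run from 250 bases before to 50 after the gene start and were searched on both strands for the X-box, the motif of RFX factors. It was found in 10 of the 34 cilium genes with a window (29.4%) and in 404 of 27025 genes with one (1.49%). Among genes in the fit against other otic cells it was found in 1.77%, among the higher ones in 4.8% and among the lower ones in 0.426%. None of the 27 bundle genes or 9 transduction genes with a window held it. The E-box CAGCTG, a form bound by many basic helix-loop-helix factors, was found in 18.3% of all windows, 22.7% of those of higher genes and 21.7% of those of lower genes. A match of letters does not show binding. The windows of the 3 cilium genes with an X-box and the largest difference from other otic cells follow, 5′ to 3′ on the gene's strand, with the X-box in capitals. They are Hydin (chr8:110266727-110267026, + strand), 1110017D15Rik (chr4:41507715-41508014, - strand) and Tekt2 (chr4:126325639-126325938, - strand).
Hydin: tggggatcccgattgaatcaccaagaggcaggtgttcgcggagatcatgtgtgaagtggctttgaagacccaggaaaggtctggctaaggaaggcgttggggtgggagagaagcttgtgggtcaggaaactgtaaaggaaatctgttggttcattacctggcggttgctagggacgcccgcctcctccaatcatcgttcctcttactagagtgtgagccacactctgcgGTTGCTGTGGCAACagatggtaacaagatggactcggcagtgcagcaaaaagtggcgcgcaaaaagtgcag
1110017D15Rik: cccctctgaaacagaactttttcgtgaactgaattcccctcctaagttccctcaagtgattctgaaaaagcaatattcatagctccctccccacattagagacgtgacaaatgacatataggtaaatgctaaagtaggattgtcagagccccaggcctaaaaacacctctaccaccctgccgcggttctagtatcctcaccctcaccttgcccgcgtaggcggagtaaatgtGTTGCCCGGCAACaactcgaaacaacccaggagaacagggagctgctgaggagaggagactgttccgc
Tekt2: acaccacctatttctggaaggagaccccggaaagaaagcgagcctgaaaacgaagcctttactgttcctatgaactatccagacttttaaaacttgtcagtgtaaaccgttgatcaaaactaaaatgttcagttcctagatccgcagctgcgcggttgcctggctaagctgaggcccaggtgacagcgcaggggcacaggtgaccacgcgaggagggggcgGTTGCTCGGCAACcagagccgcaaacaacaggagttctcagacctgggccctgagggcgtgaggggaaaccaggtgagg

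The X-boxes of 4 further called members were close to the gene start. They began 19 bases before it in Dnaic1 and Cfap45, 33 in Dnaic2 and 51 in Dynlrb2. Not every cilium gene with an X-box was higher. Tctn1 and Ift57 were not called against other otic cells (log2 difference -0.19 and -0.08), and Spag16 was not in the fit. The first X-box began 36 bases after the gene start in Tctn1, and 87 and 103 before it in Ift57 and Spag16. Hydin encodes a protein of the central pair apparatus, Tekt2 a tektin of the axoneme, and Dnaic1 and Dnaic2 dynein intermediate chains.
Cfap45: GTTGCTATGGTAAC
Dnaic1: GTTGCTGGGTAAC
Dnaic2: GTTGCTAGGCAAC
Dynlrb2: GTTGCCTAGCAAC

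Gated cells of the 2 days differed in their genes. In WT, 317 of 2869 genes with at least 50 UMIs (11%) were at least 2-fold higher and 361 (12.6%) at least 2-fold lower at day 35 than at day 25. In KO, 112 of 1115 genes (10%) were higher and 50 (4.48%) lower. Of 1114 genes measured in both genotypes, 46 were higher and 31 lower by that fold in both. These are single libraries, so the values carry no test. Leaving out the deepest 5% of barcodes removed 15 of 29 gated cells of WT at day 25, and the WT counts were then 180 and 101. These are counts among the genes that still had at least 50 UMIs, so the denominator differs. The reason for the fall was not tested.

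Cib3 was higher at day 35 in both genotypes. Its level was 34.9, 100.8, 971.4 and 990.5 CPM in WT day 25, KO day 25, WT day 35 and KO day 35, with log2 ratios of 4.8 (95% counting interval 4.14 to 5.55) in WT and 3.3 (2.5 to 4.23) in KO. It is a gate gene, so its level in part follows from the choice of cells. Nefl, Lce6a, Defb25, Sgk1, Gadd45g, Scg5, Hypk and Gm8797 were also higher on day 35 in both genotypes. Scg5, which encodes a neuroendocrine chaperone, was at 47.75 and 93.06 CPM at day 25 and 302.2 and 316.9 CPM at day 35, and was detected in 67 of 114 and 35 of 49 cells at day 35. Ptgds was higher as well, but 86.4% of its UMIs in KO at day 35 came from 1 cell. With the deepest 5% of barcodes left out, the WT log2 ratios of Cib3, Ptgds and Gm8797 were 3.3, 3.84 and 3.06. Those of the other genes lay between 1.01 (Gadd45g) and 1.93 (Hypk), other than Nefl at 0.13.

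The genes lower at day 35 in both genotypes included the glycolytic enzyme genes Pgk1 and Hk2 and the carbonic anhydrase gene Car9. Pgk1 was at 525.3, 356.7, 86.35 and 47.54 CPM in the same order of libraries (log2 ratios -2.6 and -2.91). Hk2 was at 301.2, 558.3, 119.9 and 202.1 CPM and Car9 at 376.5, 511.8, 131.9 and 206 CPM in WT day 25, KO day 25, WT day 35 and KO day 35. Meg3, an imprinted noncoding RNA, was at 1084, 1124, 211.1 and 206 CPM. P4hb, Ndrg2, H2-Ab1, Gm10709 and Prelid1 were also lower by at least 2-fold in both. The WT log2 ratios of Hk2, Car9 and P4hb were -0.39, -0.43 and -0.39, short of 2-fold, without the deepest 5% of barcodes. Those of the other genes named here lay between -2.4 (Meg3) and -1.35 (Ndrg2).

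Lists of genes are read against the shares over all genes, 11% higher and 12.6% lower in WT and 10% and 4.48% in KO. All 12 cilium genes with at least 50 UMIs had a higher level at day 35 in WT, 10 of them by at least 2-fold, with a median log2 ratio of 1.65 against 0.05 over all genes. In KO it was 5 of 6, 4 of them by at least 2-fold, with a median of 1.15 against 0.17 over all genes. Of 14 bundle genes in WT 4 were at least 2-fold higher and none lower (median 0.42), while in KO 0 of 8 passed 2-fold (median 0.03). Of 7 transduction genes in WT 2 were higher and 2 lower. Of the channel genes 3 of 6 were higher in WT and 2 of 4 in KO. Tmc1 had a log2 ratio of 1.76 and Kcna10 of 2.42 in WT. Without the deepest 5% of barcodes, 5 of the 12 cilium genes, 1 of the 14 bundle genes and 2 of the 6 channel genes were at least 2-fold higher in WT. The medians were then 0.57, 0.04 and 0.5, Tmc1 was at 0.22 and Kcna10 at 1.34.

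Of 13 other otic and supporting cell genes 8 were at least 2-fold lower in WT at day 35, Otog the most, from 521.6 to 28.78 CPM, beside the 16 of 29 cells of WT at day 25 that held 5 or more otic genes. Leaving out the deepest 5% of barcodes, 12 of the 13 had UMIs in both libraries, and 4 of these 12 were lower. In KO none of 7 was lower, and Otog was at 325.7 and 316.9 CPM, with 69.0% of the day 25 UMIs in 1 cell.

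The gated cells varied along an axis marked by 2 of the gate genes, Ccer2 and Cib3. Cells with more Ccer2 than Cib3 UMIs were 24 of 29, 12 of 15, 54 of 114 and 16 of 49 in WT day 25, KO day 25, WT day 35 and KO day 35. Cells with more Cib3 were 3 of 29, 0 of 15 (which allows up to 21.8%, exact interval), 50 of 114 and 26 of 49. Both RNAs were detected in 50.9% and 44.9% of cells at day 35, and whether the cells form separate types was not tested. This split was made after the data were seen, and its gene differences carry no test. Cells on the Ccer2 side had median depths of 3433.5 (WT) and 4154 UMIs (KO) at day 35 and cells on the Cib3 side 2731 and 3699.

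**Figure D4:**
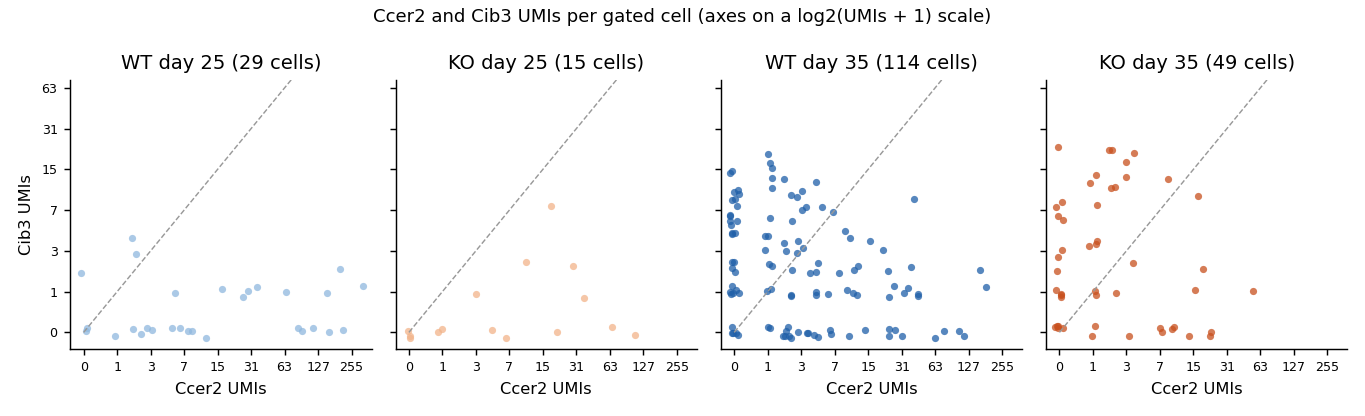
Each point is a gated cell, placed by its UMIs of Ccer2 and Cib3 on a log2(UMIs + 1) scale with small random offsets, in one panel per library; the dashed line marks equal UMIs. Cells with more Cib3 than Ccer2 UMIs number 50 of 114 in WT and 26 of 49 in KO at day 35 and 3 of 29 and 0 of 15 at day 25.

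Pvalb, Calb2 and Cib2 were among the genes higher on the Ccer2 side at day 35. Of 1531 genes with at least 20 UMIs in each day 35 library, 21 were at least 2-fold higher on the Cib3 side in both genotypes and 20 on the Ccer2 side. Pvalb, the parvalbumin gene, was at 111.2 CPM on the Cib3 and 1080 CPM on the Ccer2 side in WT, and at 80.51 and 375.9 CPM in KO. Calb2 was at 124.2 and 865.6 CPM in WT and 190.3 and 1289 CPM in KO. Cib2, a paralogue of Cib3 and an auxiliary subunit of the transduction channel, was at 143.9 and 769.5 CPM in WT and 102.5 and 443 CPM in KO. Anxa4, Rasd2, Cldn3, Nrep, Gadd45g and Mgst3 were also higher on the Ccer2 side.

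Kcna10, Nefl and Xirp2 were among the genes higher on the Cib3 side. Kcna10 was at 837 CPM on the Cib3 and 314.8 CPM on the Ccer2 side in WT and at 702.6 and 295.4 CPM in KO. Nefl was at 510.1 and 109.3 CPM in WT and 409.8 and 80.55 CPM in KO, and Xirp2 at 300.8 and 109.3 CPM in WT and 322 and 134.3 CPM in KO. Gng8, Gstm7, Cfap161, Lce6a, Rab3ip and Mt2 were higher there too. The day 25 libraries had too few cells with more Cib3 for this comparison.

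The number of genes past 2-fold between KO and WT gated cells depended on the minimum of UMIs, as given in the closing section. At day 25, 81 of 1970 genes with at least 50 UMIs (4.11%) were higher and 154 (7.82%) lower in KO. At day 35, 42 of 2016 (2.08%) were higher and 48 (2.38%) lower. Without the deepest 5% of barcodes the day 25 counts were 18 and 25, among the genes that still had at least 50 UMIs. Of 1581 genes measured on both days, 5 were higher and 5 lower on both, and 6 were past that fold in opposite directions. The 5 lower genes were also lower without the cell that held most of each gene's UMIs, while 3 of the 5 higher genes, Ankrd37, Gsn and H2-Ab1, kept the fold.

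Gsn, which encodes the actin-severing protein gelsolin, was higher in KO on both days and broadly detected. Gsn was at 95.51 CPM in WT and 465.3 CPM in KO for day 25, in 20 of 29 and 12 of 15 cells, and at 570.8 and 1272 CPM at day 35, in 84 of 114 and 45 of 49 cells. Its log2 ratios were 2.28 (1.72 to 2.85) for day 25 and 1.16 (0.909 to 1.4) for day 35, and without the top cells 2.25 and 1.02. At day 25 it was 1.72 without the deepest 5% of barcodes. At day 35 it was present on both sides of the Ccer2 and Cib3 axis, with log2 ratios of 1.19 (0.803 to 1.57) and 1.2 (0.84 to 1.57). Ankrd37 was at 71.63, 193.9, 74.35 and 206 CPM in WT day 25, KO day 25, WT day 35 and KO day 35. H2-Ab1, a class II antigen presentation gene, was at 214.9, 449.8, 40.77 and 154.5 CPM. The imprinted H19 was at 187.3, 798.7, 93.54 and 352.6 CPM, but 57.3% of its UMIs in KO at day 35 came from 1 cell, and without the top cells its day 35 log2 ratio was 0.9. Vegfa had log2 ratios of 1.18 and 1.03, and of 1.05 and 0.54 without the top cells. Its day 25 ratio was 0.37 without the deepest 5% of barcodes, while those of H19, Ankrd37 and H2-Ab1 were 1.12, 1.95 and 1.86.

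The genes lower in KO on both days were Mdk, Capg, Mat2a, Alad and the ribosomal protein gene Rpl29. Mdk, the gene of the growth factor midkine, was at 1148, 255.9, 359.8 and 174.3 CPM in that order of libraries (log2 ratios -2.17 (-2.72 to -1.66) and -1.05 (-1.56 to -0.552)). Capg, which encodes an actin-capping relative of gelsolin, was at 110.2, 15.51, 143.9 and 59.43 CPM, with 2 UMIs in KO at day 25 (log2 ratio -2.83, -5.91 to -0.913). Mat2a was at 135.9, 31.02, 177.5 and 71.31 CPM and Alad at 110.2, 38.77, 124.7 and 47.54 CPM. The day 25 log2 ratios without the deepest 5% of barcodes were -2.12 for Mdk, -1.85 for Capg, -4.23 for Mat2a and -1.34 for Alad, with 2, 1 and 2 UMIs of the last 3 genes in KO.

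At day 25 the genes named as higher in KO included Mt1 and Mt2, which encode metallothioneins, and Cxcl14. Mt1 was at 630 CPM in WT and 2900 CPM in KO and Mt2 at 108.4 and 705.7 CPM, but 50.5% and 59.3% of the KO UMIs came from 1 cell, and the log2 ratios without the top cells were 1.41 and 1.76 against 2.2 and 2.7. Cxcl14, a chemokine gene, was at 170.8 and 837.5 CPM in 24 of 29 and 13 of 15 cells (log2 ratio 2.29, and 2.11 without the top cells). Gng8, Car12 and Acss2 had log2 ratios of 2.34, 2.11 and 1.96. These 6 genes had ratios between 1.3 (Gng8) and 3.14 (Mt2) without the deepest 5% of barcodes. At day 35 Cxcl14, Mt1 and Acss2 had log2 ratios between -0.08 and -0.01. Those of Gng8, Car12 and Mt2 were 0.16, 0.33 and 0.44 (0.13 to 0.748 for Mt2).

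Several genes lower in KO at day 25 rested on single cells of WT. One cell held 84.1% of the UMIs of 1500015O10Rik, 89.6% of those of Lect1, 94.9% of those of C2cd4b and 89.0% of those of Tspan8 in that library. Without the top cells the log2 ratio of 1500015O10Rik was -0.87. Lect1, C2cd4b and Tspan8 then had 8, 3 and 8 UMIs in WT and 0 in KO, so no direction can be given. Lect1 and C2cd4b had no UMI in KO at day 25, so with all cells their log2 ratios were at most -2.6 and -2.22 against a floor of 3 counts over the gated cells. Gas1, Tox and Stmn1 were lower with and without their top cells, Gas1 at 455.5 CPM in 20 of 29 cells of WT and 77.55 CPM in 5 of 15 cells of KO (log2 ratio -2.55, and -2.83 without the top cells). Tox had 1 UMI (-4.13, -9.45 to -1.61) and Stmn1 3 UMIs in KO (-3.17, -5.47 to -1.59). Their log2 ratios were -1.12, -2.7 and -3.62, and that of 1500015O10Rik was -1.07, without the deepest 5% of barcodes.

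Some genes of other otic epithelium were also lower in KO at that day. Of 13 other otic and supporting cell genes 6 were at least 2-fold lower in KO at day 25 and 0 higher (median log2 ratio -0.73), against 7.82% and 4.11% of all genes. In these libraries 16 of 29 WT and 2 of 15 KO gated cells held 5 or more otic genes, and the part of that difference in the genes lower in KO was not tested. With the deepest 5% of barcodes left out, 10 of the 13 had UMIs in both libraries, and 3 of these 10 were lower. In the other otic cells Gas1 was at 829.9 CPM in WT and 1121 CPM in KO at day 25, and Tox at 93.47 and 54.93 CPM.

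At day 35 Ccer2 was lower in KO. Ccer2 held 3312 CPM in WT and 946.9 CPM in KO (log2 ratio -1.81, -2.01 to -1.61), against 2865 and 2427 CPM on day 25. It is a gate gene and marks an end of the axis described above, on which 54 of 114 WT and 16 of 49 KO cells had more Ccer2. Pvalb was at 642.8 and 166.4 CPM and Cib2 at 498.9 and 202.1 CPM in the same pair of libraries (log2 ratios -1.95 and -1.3), and among cells with more Ccer2 the ratios were -1.52 (-2.14 to -0.955) and -0.8 (-1.38 to -0.254). Calb2 was at 554 and 491.3 CPM.

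Cdkn1c, Lcn2, Apod, Nupr1, Slpi, Saa3 and Myl1 were the other genes named as lower in KO at day 35. Cdkn1c, which encodes a cell cycle inhibitor, was at 400.5 and 27.73 CPM, in 27 of 114 and 6 of 49 cells (log2 ratio -3.85, -5.19 to -2.78), Lcn2 at 287.8 and 23.77 CPM, Apod at 357.4 and 35.66 CPM and Nupr1 at 594.8 and 146.6 CPM. Slpi had no UMI in KO (log2 ratio at most -4.07 against the floor) and 71.1% of its WT UMIs in 1 cell, and 74.4% of the Saa3 UMIs of WT came from 1 cell. Myl1, a muscle gene, was at 129.5 and 11.89 CPM, with 3 UMIs in KO (log2 ratio -3.45, -5.77 to -1.82). The 8 muscle markers summed to 841.9 CPM in WT and 245.6 CPM in KO gated cells and to 6218 and 2093 CPM in the other cells of the same libraries.

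Genes higher in KO at day 35 included otic and immediate early genes. Otog, the otogelin gene of the tectorial and otoconial membranes, was at 28.78 and 316.9 CPM in 6 of 114 and 8 of 49 cells (log2 ratio 3.46, 2.58 to 4.47), and Bricd5 was at 31.18 and 253.6 CPM in 5 and 10 cells. Of 9 other otic and supporting cell genes 4, Otog, Otol1, Sox9 and Epcam, were at least 2-fold higher, beside 4 of 114 WT and 6 of 49 KO cells that held 5 or more otic genes. Of 19 immediate early genes 6 were at least 2-fold higher and none lower (median log2 ratio 0.72 against 0.04 over all genes). Fosb was at 127.1 and 471.5 CPM, with 47.9% of the KO UMIs in 1 cell. Sfrp1, an inhibitor of Wnt signalling, was at 122.3 and 420 CPM in 29 cells of each library, and Cntn1, Gas2 and Akap12 had log2 ratios of 2.58, 2.06 and 2.06. At day 25 the same immediate early list had 1 of 16 genes at least 2-fold higher and 3 lower (median -0.59). Without the deepest 5% of barcodes 1 of the 16 was higher and 1 lower, with 8 above 0 and a median of -0.02. A day 25 decrease of the list therefore depended on the deep barcodes.

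Hair cell genes were also counted by list between genotypes. At day 35, when 2.08% of all genes were higher and 2.38% lower in KO, 0 of 11 bundle genes, 0 of 6 channel genes and 0 of 12 cilium genes differed by 2-fold, with median log2 ratios of 0.08, -0.03 and -0.31, and these counts are near the shares over all genes. Of 6 transduction genes Cib2 was lower, and of 10 calcium buffer genes Pvalb was lower. At day 25, 4.11% of all genes were higher and 7.82% lower in KO. Higher were 1 of 8 bundle, 1 of 4 channel, 2 of 11 calcium buffer and 1 of 5 cilium genes, and none of these lists had a lower gene. None of 4 transduction genes passed 2-fold. Without the deepest 5% of barcodes the higher genes numbered 0, 0, 2 and 1, and 1 transduction gene was higher. These lists are short, and a difference from the shares over all genes was not tested. Isl1 and Sox2 of 9 transcription factor genes were lower. Isl1 was at 104.7 CPM in 14 of 29 cells of WT and 15.51 CPM in 1 of 15 cells of KO (log2 ratio -2.75, -5.84 to -0.836). Isl1 had 6 UMIs in WT and 0 in KO without the deepest 5% of barcodes, and no direction can be given. Cholesterol synthesis genes were above 0 for 8 of 8 at day 35, with a median of 0.61, and Fdps alone passed 2-fold, at 383.8 and 851.8 CPM. None of 3 apoptosis genes at day 25 and none of 5 at day 35 passed 2-fold. The number of genes with enough UMIs, not the size of the lists, set these denominators.

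**Figure D5:**
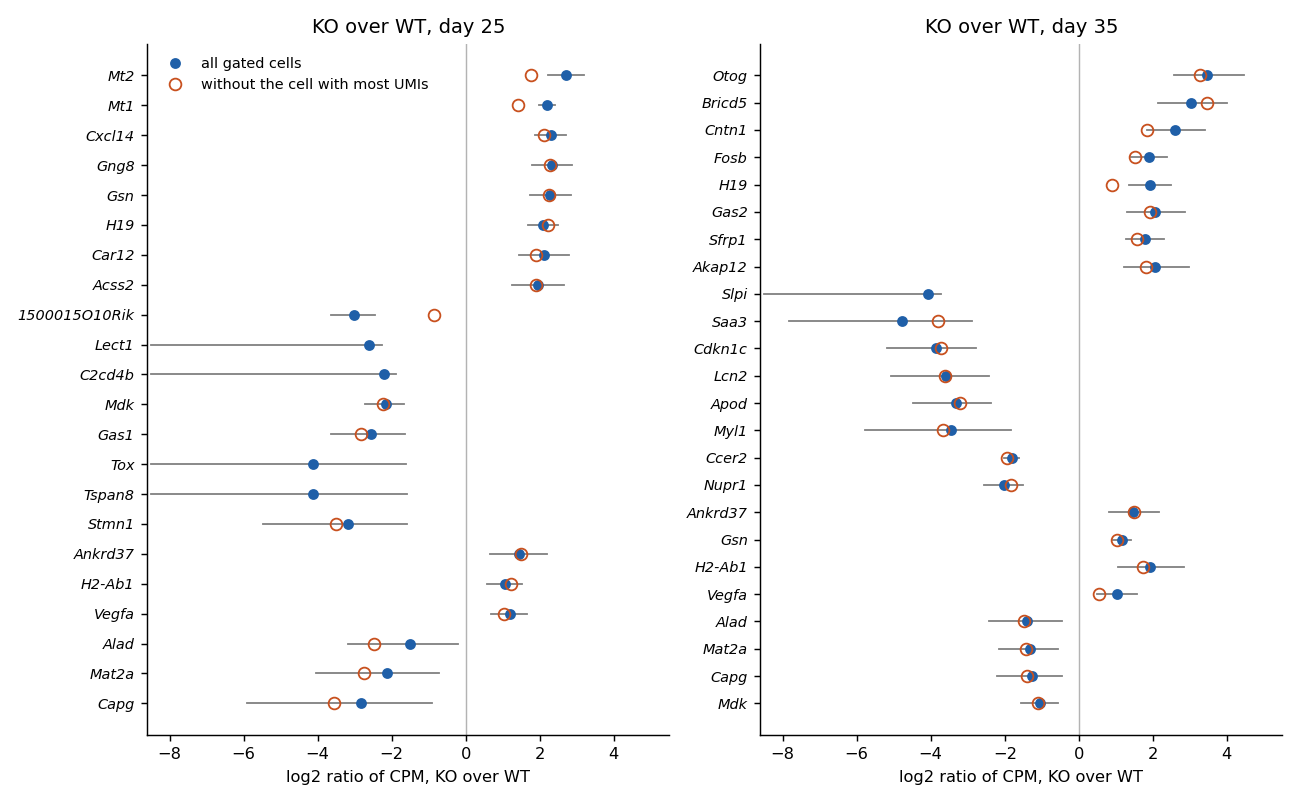
Log2 ratios of KO over WT in gated cells are shown at day 25 (left) and day 35 (right) with 95% counting intervals as lines, filled points for all gated cells and open points without the cell that holds most of a gene's UMIs in each library; an interval that runs to the left edge belongs to a gene with 0 UMIs or 1 UMI in KO, and no open point is drawn where a library then had 0 UMIs. The open point of 1500015O10Rik lies far from the filled one, and those of Gsn, Ankrd37 and Mdk lie close to them.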

How the data were processed

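Single-cell RNA sequencing with 3' counting gave 4 libraries, 1 per genotype and day. The deposited values are raw UMI counts per gene and barcode for 27998 genes, made by the authors without normalization. Tools listed, per the submitters' processing notes, are bcl2fastq, Cell Ranger 2.1.0, R 3.5.1 and Seurat 2.3.1, with GRCm38 and mm10 as builds and no role given for each. How multi-mapped reads and strand were handled is not given in the sources used here.

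Gated cells and gene lists were chosen with earlier results of these data known. Genes were named by size of difference, detection and library direction (25 higher and 10 lower against other cells, 10 and 10 against other otic cells, 8 and 8 per day for KO over WT, up to 10 and 10 for both days or both genotypes), leaving out mt-, Rpl and Rps genes. List members, gate genes and Tmprss3 could be named besides. The genes of the Ccer2 and Cib3 axis, the motile cilium list, Smpx and Rpl29 were named after their values were seen. Some genes that the rule names are not reported here.

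Counts were summed per library and fitted with edgeR 4.0.16 (TMM, filterByExpr, quasi-likelihood test, R 4.3.3) with the library as a block, since both sums come from the same library. Standard errors are those of DESeq2 1.42.0. On simulated counts the test called 14% of genes changed 2-fold and 61% of those changed 4-fold against other kept cells (14298 genes), and 34% and 85% against other otic cells (9961 genes). Between single libraries, CPM of the gated cells' UMIs were compared with exact Poisson and conditional binomial 95% intervals, which cover counting error only, with a floor of 3 counts over the gated cells for a count of 0. No doublet caller was run. Leaving out barcodes above the 95th percentile of UMIs served as the alternative. In bulk sums, fewer expressing cells and less RNA per cell cannot be told apart. Alternatives were other limits of the gate, depth, weighting and scaling.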

Additional observations from a re-analysis of the deposited data

Results flagged for a closer look

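The difference between the KO over WT log2 ratio at day 35 and at day 25 stood out for 8 genes, since the ratio was negative at day 25 and positive at day 35. These differences were not tested, because each ratio compares single libraries. The value was 3.56 for 1500015O10Rik, of which 1 cell of WT at day 25 held 84.1% of the UMIs, and 5.27 for Tspan8, of which 1 cell held 89.0%. Without the top cells the ratios of 1500015O10Rik were -0.87 at day 25 and -0.3 at day 35, negative on both days. The value was 4.14 for Otog, 4 for Bricd5 and 3.9 for Cntn1, which had UMIs in 4, 3 and 3 cells of KO at day 25. It was 3.28 for Gas1, 3.38 for Fosb and 3.44 for Sfrp1. All 8 ratios at day 25 rest on 15 cells of KO and on the deep gated cells of WT. Once the deepest 5% of barcodes were left out, Tspan8 had 1 UMI (WT) and 0 (KO), and the other 7 ratios lay between -3.53 (Cntn1) and -0.22 (Sfrp1).

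In WT at day 35, 18 further barcodes passed the 11-gene gate but lay above the limit of 20% mitochondrial UMIs, and they entered no comparison. The other libraries held 0 (WT, day 25), 1 (KO, day 25) and 2 (KO, day 35) such barcodes.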

How the results depend on the processing

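The share ratios kept their direction under other gate limits, mitochondrial limits and thinning to 2000 UMIs, where 11 shallower gated cells of WT at day 35 were left out. Thinned, the KO over WT ratio at day 25 was 0.603 (0.253 to 1.38), an interval that includes 1. On the otic denominator the KO over WT ratio was 0.658 at day 25, with an interval that includes 1, and 0.348 at day 35. The day ratio on that denominator was 1.06 in WT and, reversed, 0.561 in KO. Without the deepest 5% of barcodes the WT day ratio was 8.48. Counts of genes past 2-fold between libraries moved more. With a minimum of 20 UMIs they were 353 higher and 618 lower (KO over WT, day 25), 259 and 177 (day 35), 664 and 1028 (WT days) and 379 and 186 (KO days). Without the deepest 5% they were 18 and 25 (KO over WT, day 25) and 180 and 101 (WT days), among the genes that still had at least 50 UMIs. With at most 10% mitochondrial UMIs, 26 were higher in KO at day 35, and 206 and 199 differed between WT days. Without each gene's top cell, an alternative added after seeing the data, 246 were lower in KO at day 25. For 3 genes lower in KO at day 25 the sign of the log2 ratio turned where KO had 0 UMIs, so these values are upper bounds set by the floor of 3 counts and give no direction. They were 0.758 (at least 5 gate genes), 0.468 (without the deepest 5%) and 0.59 (without the top cell) for Lect1, 2.17 (at least 5 gate genes) and 2.01 (without the top cell) for C2cd4b, and 0.758, 2.05 and 0.758 for Tspan8. Against other otic cells 991 genes were lower with no filter on low counts. Leaving out each library in turn gave 1445 to 1520 higher and 1485 to 1836 lower genes against other cells, and 684 to 897 and 438 to 755 against other otic cells. With no replicate block the counts were 1569 and 1514, and 739 and 505. Of the named genes in these fits Dppa5a alone lost its call, with DESeq2 (adjusted p = 0.163) and with no replicate block (0.133). No paired analysis was possible between genotypes or days because each group has 1 library. With 15 and 29 gated cells, day 25 values are the least precise.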
